A study of Arabidopsis thaliana with 8 samples.

Results

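EIN2, the transcription factors EIN3, EIL1 and EIL3, and 6 further proteins of the same pathway were described as 1 group of genes: the F-box proteins EBF1, EBF2, ETP1 and ETP2, the exoribonuclease EIN5 (also XRN4) and the chromatin protein ENAP1. The 10 genes were chosen by their locus identifiers, for their known place in ethylene signalling: EIN2 (AT5G03280), EIN3 (AT3G20770), EIL1 (AT2G27050), EIL3 (AT1G73730), EBF1 (AT2G25490), EBF2 (AT5G25350), EIN5 (AT1G54490), ETP1 (AT3G18980), ETP2 (AT3G18910) and ENAP1 (AT3G11100). All 10 were found among the 36799 genes of the count tables. All 10 also passed the expression filter, as did 20193 genes in all.

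Ethylene is a gaseous plant hormone, and in dark-grown seedlings it shortens the hypocotyl and root and tightens the apical hook. Without it, receptors keep the kinase CTR1 active, and CTR1 phosphorylates EIN2, a protein of the endoplasmic reticulum membrane. Once ethylene is bound, the C-terminal part of EIN2 is released and reaches the nucleus, where EIN3 and EIL1 switch on ethylene-responsive genes. EIN3 and EIL1 proteins are marked for degradation by EBF1 and EBF2, and EIN2 protein by ETP1 and ETP2. Much of this control acts on proteins, whereas the libraries measured messenger RNA.

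The material was whole Arabidopsis thaliana seedlings, labelled as 3 days old, which had grown in the dark on MS plates, and the assay was sequencing of poly(A) RNA. The groups were e2-2 e3-2-2 line #67 (e2e3 below) in 10 ppm ethylene, the same line in hydrocarbon-free air, e1-2-2 e2-2 line #17 (e1e2 below) in 10 ppm ethylene, and that line in air, with 2 libraries each. The series title ties these alleles to the pyruvate dehydrogenase complex in the nucleus and to histone acetylation directed by EIN2. Both lines carry e2-2, each genotype is represented by 1 numbered line, and no wild-type libraries were analysed here, so that an effect of e2-2 itself cannot be seen. The loci behind the allele names and the hours of ethylene are not given in the labels. The 8 libraries held 11522823 to 18601837 counted read pairs, and the 10 genes had between 84 counts (ETP2, e2e3 in air) and 8292 counts (EIN2, e1e2 in ethylene) per library. The labels do not say that replicates were separate plantings, so p-values measure only the spread between libraries, which may be technical. In whole seedlings, fewer cells of a type and less RNA per cell cannot be told apart.

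Levels are given as CPM, counts scaled to a common library total after TMM scaling, which corrects for library composition. Comparisons between genes use FPKM, the CPM divided by the exonic length in kilobases. Changes are log2 ratios ± SE, and a gene was called at a Benjamini-Hochberg adjusted p under 0.05 over all 20193 genes in edgeR's quasi-likelihood test. All adjusted p-values below come from that test unless another is named.

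EIN2 RNA rose in ethylene in both lines. It lay at 531 and 507 CPM in the 2 e2e3 libraries in ethylene, against 378 and 377 CPM in e2e3 in air. In e1e2 it lay at 558 and 554 CPM in ethylene, against 364 and 357 CPM in air. Every ethylene library stood above every air library, and the 2 e2e3 ethylene libraries were both below the 2 e1e2 ethylene libraries. The log2 change was 0.46 ± 0.04 in e2e3 (1.37-fold, adjusted p = 1.6e-27) and 0.63 ± 0.04 in e1e2 (1.54-fold, adjusted p = 2.1e-41). Both calls held under all 15 alternative analyses. EIN2 lies at chr5:787428-793404 on the plus strand (TAIR10), with 8 exonic blocks and 4851 exonic bases, none of them under another gene.

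The 250 bases before the annotated start of EIN2 are shown together with those of EBF1 and EBF2. These 3 genes are a signal carrier and the 2 F-box genes at the end of its pathway, and their responses differ in size. They were read from the RefSeq TAIR10.1 genome, in which the starts and ends of all 10 genes are the same as in the count tables, and are written 5′ to 3′ on the gene's strand. Capitals mark each match to ATGTA, on either strand, so that its reverse complement TACAT is marked too. This string is the start of the sequence known to be bound by EIN3 and by its tobacco relative TEIL.
EIN2, chr5:787178-787427, plus strand.
EIN2: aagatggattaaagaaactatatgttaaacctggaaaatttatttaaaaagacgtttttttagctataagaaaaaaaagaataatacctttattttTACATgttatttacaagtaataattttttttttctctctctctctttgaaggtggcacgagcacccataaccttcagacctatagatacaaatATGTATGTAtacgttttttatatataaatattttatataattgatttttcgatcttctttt
EBF1, chr2:10850798-10851047, minus strand.
EBF1: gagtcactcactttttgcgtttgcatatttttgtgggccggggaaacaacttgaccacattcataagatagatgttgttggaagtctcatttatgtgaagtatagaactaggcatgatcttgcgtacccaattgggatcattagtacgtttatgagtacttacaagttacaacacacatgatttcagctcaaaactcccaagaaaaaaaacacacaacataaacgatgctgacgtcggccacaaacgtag
EBF2, chr5:8797350-8797599, minus strand.
EBF2: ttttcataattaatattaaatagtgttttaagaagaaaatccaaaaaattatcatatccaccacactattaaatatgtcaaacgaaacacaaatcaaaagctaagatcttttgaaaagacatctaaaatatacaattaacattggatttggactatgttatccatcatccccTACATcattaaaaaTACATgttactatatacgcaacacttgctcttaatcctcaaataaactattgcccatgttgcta
The EIN2 window held 3 matches, beginning 154, 61 and 57 bases before the start, and the last 2 overlap in the letters ATGTATGTA. The EBF2 window held 2 matches, at 78 and 64 bases. The EBF1 window held 0. Of the other 6 windows searched, the ENAP1 window held 2 matches and the ETP2 window 1, and those of EIL1, EIL3, EIN5 and ETP1 held 0. On both strands, 52% of the windows of 27443 protein-coding genes held at least 1 match, as did 4 of the 9 searched. The longer string ATGTATCT (reverse complement AGATACAT) was in 1.23% of all windows and in 0 of the 9. These letters are AT-rich like the windows themselves (23.6% G and C for EIN2, 27.2% for EBF2), and a match is a description of the sequence and not a measured site.

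ETP1 and ETP2 are related F-box proteins that bind the C-terminal part of EIN2 and target it for degradation. Their genes lie on chromosome 3, at 6546200 to 6548092 and 6521569 to 6523061 on the plus strand, and their coding sequences are 72.9% identical. For neither gene did an alignment of 50 bases or more elsewhere in the genome reach 95% identity. The longest, between the 2 genes, had 66.9% over 1349 bases. Shorter stretches of higher identity within an alignment were not searched for, and reads that fit both genes were not counted. ETP1 lay at 20.05 and 24.5 CPM in e2e3 in ethylene, against 16.3 and 15.9 CPM in e2e3 in air. Levels in e1e2 were 26.6 and 24.5 CPM in ethylene, against 19.4 and 19.1 CPM in air. The ethylene libraries were above the air libraries of the same line in both cases. ETP1 rose by a log2 of 0.47 ± 0.10 in e2e3 (adjusted p = 3.3e-05) and 0.41 ± 0.10 in e1e2 (adjusted p = 0.00032), and these calls too held under all 15 alternatives.

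ETP2 was the least abundant of the 10 genes and the most uncertain. It lay at 8.73 and 7.93 CPM in e2e3 in ethylene, against 6.61 and 4.73 CPM in e2e3 in air. In e1e2 ETP2 was at 8.08 and 9.07 CPM in ethylene, against 8.66 and 7.09 CPM in air, and these groups overlap. The log2 change was 0.58 ± 0.17 in e2e3 (adjusted p = 0.0023) and 0.13 ± 0.16 in e1e2 (adjusted p = 0.58, 95% interval -0.19 to 0.45). The e2e3 call rests on its second air library, the lowest of the 8: without it the log2 change was 0.35 and not called. The difference between the lines' responses was 0.45 ± 0.23 (adjusted p = 0.37), so a different response of ETP2 was not shown.

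ENAP1 binds histones and the C-terminal part of EIN2 in the nucleus. It lay at 35.97 and 39.5 CPM in e2e3 in ethylene, against 38.6 and 35.9 CPM in e2e3 in air. For e1e2 the levels were 34.8 and 34.8 CPM in ethylene, against 44.6 and 45.1 CPM in air. The e2e3 groups overlap, while in e1e2 both ethylene libraries were below both air libraries. ENAP1 fell in e1e2, by 0.37 ± 0.08 on the log2 scale (adjusted p = 1.4e-05), a call that held under all 15 alternatives. In e2e3 the change was 0.02 ± 0.07 (adjusted p = 0.85, 95% interval -0.12 to 0.17).

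The responses of ENAP1 differed between the lines by a log2 of 0.39 ± 0.11 (e2e3 minus e1e2, adjusted p = 0.018). In air ENAP1 was lower in e2e3 than in e1e2 by a log2 of -0.27 ± 0.07 (adjusted p = 0.0039). In ethylene e2e3 over e1e2 was 0.12 ± 0.08 (adjusted p = 0.43). The difference and the comparison in air share the air libraries, so they are not separate evidence. The call on the difference was lost without the first e1e2 ethylene library (0.39), the second (0.39), the second e2e3 air library (0.35) or the second e2e3 ethylene library (0.32), all for ENAP1. The call in air was lost without the second e2e3 air library (-0.23), and DESeq2 did not make it (DESeq2 adjusted p = 0.077). Of SRT1 and SRT2, sirtuin deacetylases reported to bind ENAP1, 0 of 2 were called in either line's response by edgeR, 0 had an unadjusted p under 0.05, and DESeq2 called 0. The log2 change of SRT1 was 0.05 ± 0.22 in e2e3 and 0.32 ± 0.22 in e1e2, and that of SRT2 was 0.15 ± 0.14 in e2e3 and -0.04 ± 0.14 in e1e2.

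**Figure D1:**
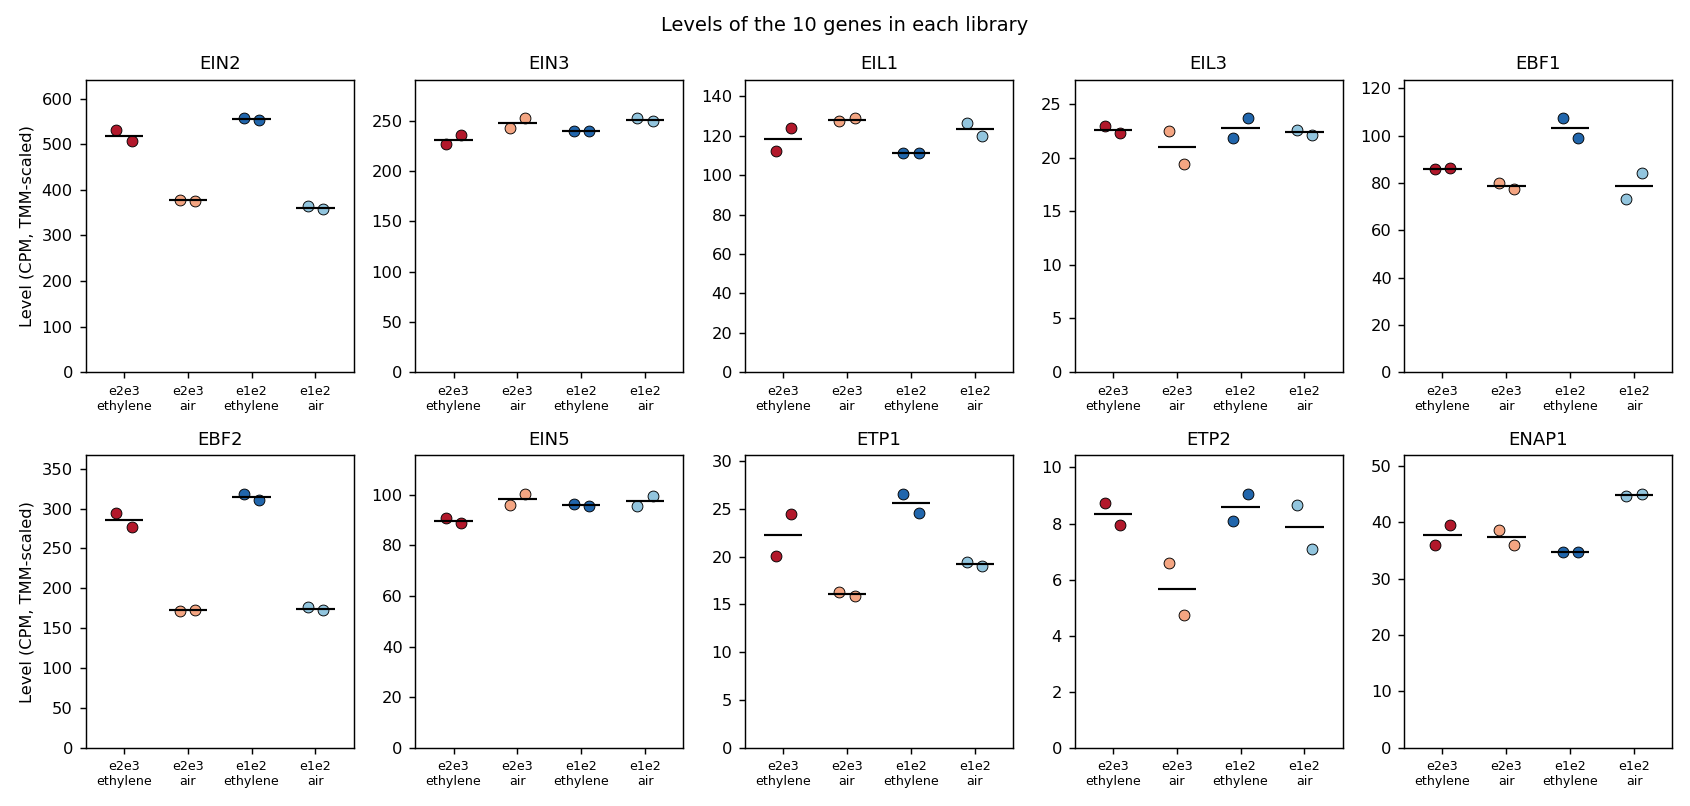
Level of each of the 10 genes in every library, in CPM after TMM scaling, on axes that start at 0. Points are libraries and bars are means of 2. EIN2 and EBF2 stood higher in all ethylene libraries, EIN3 moved little, and ENAP1 was highest in e1e2 in air.

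EIN3 and EIL1, the main transcription factors of the pathway, moved little at the RNA level. EIN3 lay at 227 and 236 CPM in e2e3 in ethylene, against 243 and 253 CPM in e2e3 in air. In e1e2 it lay at 240 and 240 CPM in ethylene, against 253 and 249.9 CPM in air. Ethylene libraries were below air libraries in both lines, by a log2 of -0.10 ± 0.04 in e2e3 (adjusted p = 0.023) and -0.06 ± 0.04 in e1e2 (adjusted p = 0.19). The e2e3 call on EIN3 was lost without the second e2e3 air library (-0.05), the first e2e3 ethylene library (-0.07) or the second e1e2 ethylene library (-0.10, adjusted p at 0.05). It was also lost when libraries were scaled by their totals alone (-0.02). The 95% interval for e2e3 was -0.18 to -0.03, so a fall of EIN3 RNA beyond 0.18 on the log2 scale lies outside it.

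EIL1 (chr2:11545656-11548293, plus strand) is the closest relative of EIN3, with 82.1% identity of the coding sequences. It lay at 112 and 124 CPM in e2e3 in ethylene, against 127 and 129 CPM in e2e3 in air, and at 111 and 111 CPM in e1e2 in ethylene, against 127 and 119.8 CPM in e1e2 in air. EIL1 was called lower in both lines, by a log2 of -0.12 ± 0.05 in e2e3 (adjusted p = 0.030) and -0.15 ± 0.05 in e1e2 (adjusted p = 0.0089). Within each line the ethylene libraries were below the air libraries. Neither EIL1 call was made by DESeq2 (DESeq2 adjusted p = 0.22 in e2e3 and 0.089 in e1e2) or with library totals as the only scaling. Without a filter and with a stricter filter, the e2e3 call was lost too. The e2e3 call on EIL1 held under 5 of 15 alternatives. It was lost without the first (-0.11) or second (-0.09) e2e3 air library, the first e2e3 ethylene library (-0.04), the first e1e2 air library (-0.10) or either e1e2 ethylene library (-0.11 each). The e1e2 call held under 10 of 15 alternatives and was lost without the first e1e2 air library (-0.11) or either e1e2 ethylene library (-0.15 each).

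EIL3 (chr1:27730031-27732683, minus strand), known as SLIM1 for its part in the response to sulphur limitation, was not called in any comparison by edgeR, with no unadjusted p under 0.05, nor by DESeq2. It lay at 22.9 and 22.3 CPM in e2e3 in ethylene, against 22.5 and 19.4 CPM in e2e3 in air, and at 21.8 and 23.7 CPM in e1e2 in ethylene, against 22.6 and 22.1 CPM in e1e2 in air. Its log2 change was 0.12 ± 0.10 in e2e3 (95% interval -0.07 to 0.31) and 0.03 ± 0.10 in e1e2 (-0.17 to 0.22). Of the other 3 genes of the family, EIL2 (0.609 to 2.04 FPKM over the group means) and EIL4 (1.97 to 3.97 FPKM) were far less abundant. EIL5 was near EIL3, at 8.10 to 10.5 FPKM beside 8.36 to 9.08 FPKM. EIL2 rose by a log2 of 1.58 ± 0.29 in e2e3 (109 counts over the 2 libraries in ethylene, 40 in air) and 1.59 ± 0.33 in e1e2 (100 counts in ethylene, 27 in air). EIL4 and EIL5 fell in e2e3, by 0.66 ± 0.20 and 0.39 ± 0.11, and had log2 changes of -0.52 ± 0.23 and -0.17 ± 0.12 in e1e2, where neither was called. Without the first e2e3 ethylene library EIL4 was no longer called in e2e3 (-0.41), and without the second e2e3 air library EIL5 was not (-0.29).

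EBF2 (chr5:8794252-8797349, minus strand), the F-box protein that removes EIN3 and is itself a known target of EIN3, had the largest response of the 10 genes in both lines. It lay at 295 and 277 CPM in e2e3 in ethylene, against 171 and 173 CPM in e2e3 in air. Levels in e1e2 were 319 and 311 CPM in ethylene, against 177 and 172 CPM in air. The ethylene libraries were far above the air libraries, and both e2e3 ethylene libraries were below both e1e2 ethylene libraries. EBF2 rose by a log2 of 0.73 ± 0.04 in e2e3 (1.66-fold, adjusted p = 3.4e-45) and 0.85 ± 0.04 in e1e2 (1.80-fold, adjusted p = 3.1e-53), under all 15 alternatives. EBF2 is also the only gene of the 10 among the 1242 genes in the authors' deposited table of genes called in wild type, whose smallest absolute wild-type log2 change is 1.00. There its log2 change was 1.01 in wild type, 0.73 in e2e3 and 0.85 in e1e2, with no test of the difference from wild type. Since genes entered that table by their wild-type call, these values are not compared on equal terms.

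The EBF2 counts come from part of the gene. Of its 2929 exonic bases, 626 (21.4%) lie under 2 genes of the opposite strand, AT5G25340 and AT5G03965, and read pairs over more than 1 gene were left out of the counting. AT5G25340 had 0 to 7 counts per library and AT5G03965 had 0. EBF2 levels per length are therefore too low, while its changes use the same bases in every library.

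EBF1 (chr2:10847375-10850797, minus strand), which shares the role of EBF2 and 66.3% of its coding sequence, rose in e1e2 and by less in e2e3. It lay at 85.9 and 86.2 CPM in e2e3 in ethylene, against 79.9 and 77.4 CPM in e2e3 in air. In e1e2 it lay at 108 and 98.9 CPM in ethylene, against 73.4 and 84.3 CPM in air. No groups within a line overlap, and the e1e2 libraries were more spread than those of e2e3. The log2 change was 0.13 ± 0.05 in e2e3 (adjusted p = 0.037) and 0.39 ± 0.06 in e1e2 (adjusted p = 2.2e-10). The e1e2 call held under all 15 alternatives. The e2e3 call was lost without the second e2e3 air library (0.13), the first e2e3 ethylene library (0.14) or the second (0.13), and the authors' deposited DESeq2 table gives EBF1 an adjusted p of 0.234 in e2e3. Their DESeq2 values in e2e3 were also above 0.05 for EIN3 (0.186), EIL1 (0.272), EIN5 (0.238) and ETP2 (0.120), all called here. So was that of EIL1 in e1e2 (0.142). The other calls made here on the 10 genes in either line's response were under 0.05 there too.

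EIN5 (chr1:20350109-20356916, plus strand) is the cytoplasmic 5′ to 3′ exoribonuclease XRN4, whose loss is known to raise EBF1 and EBF2 RNA. It lay at 90.7 and 88.7 CPM in e2e3 in ethylene, against 96.0 and 100.5 CPM in e2e3 in air, and at 96.4 and 95.6 CPM in e1e2 in ethylene, against 95.7 and 99.4 CPM in e1e2 in air. EIN5 was called lower in e2e3, by a log2 of -0.13 ± 0.05 (adjusted p = 0.024), and was not called in e1e2 (-0.02 ± 0.05, adjusted p = 0.75). The e2e3 call was lost without the second e2e3 air library (-0.08), the first e2e3 ethylene library (-0.14) or the second (-0.12), and with library totals as the only scaling (-0.05). The responses of EIN5 were not shown to differ (-0.11 ± 0.07, adjusted p = 0.54).

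Counted together, 8 of the 10 genes were called in e2e3, where 44.0% of all tested genes were called. EIN2, EBF1, EBF2, ETP1 and ETP2 rose (5 of 10, with 20.3% of all tested genes higher), and EIN3, EIL1 and EIN5 fell (3 of 10, with 23.6% lower). In e1e2, 6 of the 10 were called, where 39.2% of all tested genes were. EIN2, EBF1, EBF2 and ETP1 rose (4 of 10, with 18.3% of all tested genes higher), and EIL1 and ENAP1 fell (2 of 10, with 20.9% lower). The median log2 change of the 10 was 0.12 in e2e3 and 0.08 in e1e2, beside 0.01 over all tested genes in each line. Over all genes, the main fit called 8876 in e2e3, and the alternatives other than leaving out 1 library called 5924 to 9647. In e1e2 the main fit called 7911, and those alternatives called 5137 to 8712. The count in e2e3 depends on the analysis: DESeq2 called 3 of the 10 (EIN2, EBF2 and ETP1), and leaving out 1 library gave 3 to 8. The count of 3 came without the second e2e3 air library, and 4 were called without the first e2e3 ethylene library. In e1e2, DESeq2 called 5, and leaving out 1 library gave 5 or 6.

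**Figure D2:**
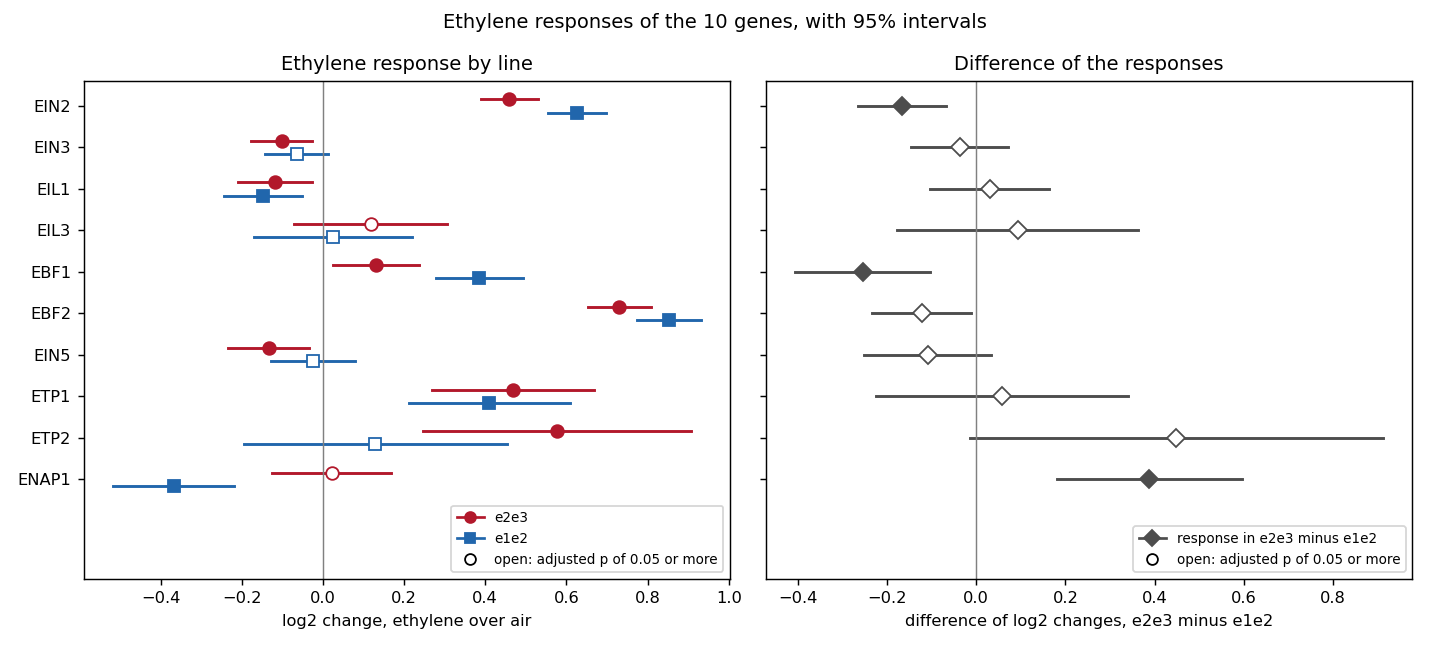
Left, log2 change in ethylene over air for each gene in e2e3 and in e1e2. Right, the response in e2e3 minus that in e1e2. Bars are 95% intervals, which are not adjusted for the number of genes, and filled symbols mark an adjusted p under 0.05. EIN2, EBF2 and ETP1 were higher in ethylene in both lines, and ENAP1 was lower in e1e2.

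The responses of 3 of the 10 genes were called different between the lines, where 2.80% of all tested genes were (1.54% higher and 1.27% lower). EIN2 rose by less in e2e3 (-0.17 ± 0.05, adjusted p = 0.044), as did EBF1 (-0.25 ± 0.08, adjusted p = 0.042), and ENAP1 went the other way, as given above. For EIN2 and EBF1 the adjusted p lay just under the threshold, and each call held under 2 of 14 alternatives. Leaving out 1 library gave values of -0.13 to -0.20 for EIN2, whose call was kept without the first e2e3 ethylene library (-0.20) and lost without any of the other 7. For EBF1 these values were -0.14 to -0.36, the call was kept without the second e1e2 air or the second e1e2 ethylene library, and the value of -0.14 came without the first e1e2 air library. For EBF2 the difference was -0.12 ± 0.06 (adjusted p = 0.29), and it was between -0.11 and 0.45 for the other 6 genes, none of them called. DESeq2 called 0 of the 10 for this difference: it gave an adjusted p to 6 of them, and 3 of the 10 had an unadjusted p under 0.05.

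Between the lines in ethylene, EBF1 and EBF2 were lower in e2e3 than in e1e2, the only 2 of the 10 that were called, where 6.56% of all tested genes were (2.32% lower). The log2 ratio of e2e3 over e1e2 was -0.26 ± 0.05 for EBF1 (adjusted p = 6.5e-05) and -0.14 ± 0.04 for EBF2 (adjusted p = 0.0079). For EBF1 the call was lost without the first e1e2 ethylene library (-0.20). For EBF2 it was lost without the first e1e2 ethylene library (-0.12), the second (-0.16) or the second e2e3 ethylene library (-0.09). DESeq2 did not make the EBF2 call either (DESeq2 adjusted p = 0.081). EIN2 in ethylene was at -0.10 ± 0.04 and missed the threshold (adjusted p = 0.060); it was called when either e1e2 air library (-0.10 each) or the first e2e3 ethylene library (-0.13) was left out. The EIN2 value without the first e2e3 ethylene library rests on 1 library in that group, whose spread is taken to be like that of the others.

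In air, ETP2 and ENAP1 were lower in e2e3 than in e1e2, the only 2 of the 10 that were called, where 14.8% of all tested genes were (5.83% lower). For ETP2 the log2 ratio was -0.49 ± 0.18 (adjusted p = 0.041), and the call was lost without the second e2e3 air library (-0.26) or the first e1e2 air library (-0.36). The ETP2 call was also lost with the replicate number as a block and in a fit of only the groups compared. DESeq2 gave ETP2 no adjusted p in air. ETP1 was at -0.26 ± 0.11 (adjusted p = 0.097). EIN2, EIN3, EIL1, EBF1, EBF2 and EIN5 had log2 ratios between -0.02 and 0.07 in air, with 95% intervals that reach no further than -0.12 and 0.15.

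Tissue markers also differed between the groups. Of 8 markers, 5 were tested, and the summed level of all 8 was 9207 to 9256 CPM in e2e3 in ethylene, 13104 to 13319 CPM in e2e3 in air, 8411 to 8454 CPM in e1e2 in ethylene and 11487 to 11936 CPM in e1e2 in air. PYK10, a root and hypocotyl beta-glucosidase, made up most of this sum. The flower genes AP1, AP3 and AG had 0 to 4 counts per library, while PORA, an enzyme of dark-grown cotyledons, was at 1307 to 1765 CPM over the group means. In ethylene against air, PORA rose, at 1764 against 1307 CPM in e2e3 and 1765 against 1516 CPM in e1e2. PYK10 fell, at 6712 against 10938 CPM in e2e3 and 5947 against 9348 CPM in e1e2. CAB3, a chlorophyll-binding protein gene of cotyledons, fell too, at 176 against 192 CPM in e2e3 and 206 against 270 CPM in e1e2. CER1 of the epidermal wax layer was at 317 against 484 CPM in e2e3 and 293 against 350 CPM in e1e2. CASP1 of the root endodermis was at 264 against 290 CPM in e2e3 and 220 against 227 CPM in e1e2, where its groups overlap. Of the 5 tested markers, 1 was called higher and 4 lower in e2e3, and 1 higher and 3 lower in e1e2. Of all tested genes, 20.3% were called higher and 23.6% lower in e2e3, and 18.3% and 20.9% in e1e2. In the difference of responses, CER1 was lower (-0.35 ± 0.05), and PORA (0.21 ± 0.05) and CAB3 (0.26 ± 0.06) were higher. For PORA this was a larger rise in e2e3, and for CAB3 a smaller fall. The part of these markers in the responses of EIN2, EBF1 and ENAP1 was not tested.

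**Figure D3:**
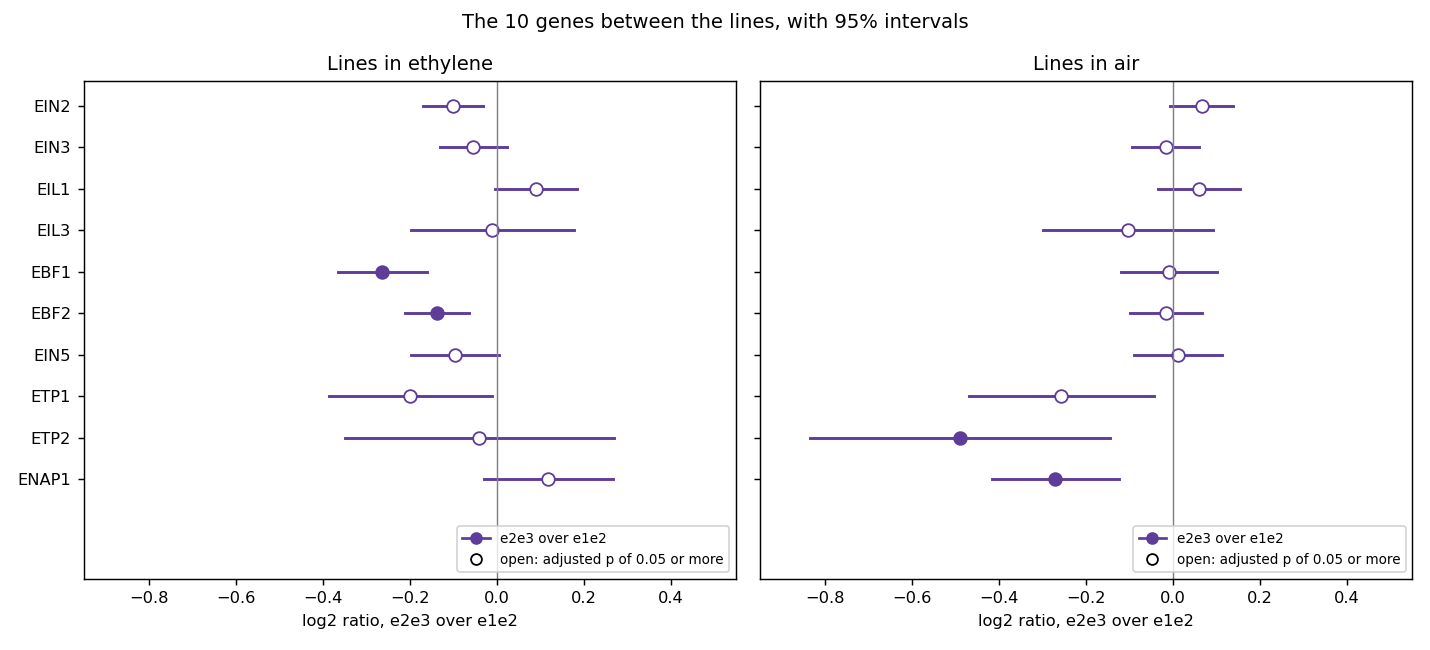
Log2 ratio of e2e3 over e1e2 for each gene, in ethylene on the left and in air on the right, with 95% intervals that are not adjusted for the number of genes. Filled symbols mark an adjusted p under 0.05: EBF1 and EBF2 in ethylene, ETP2 and ENAP1 in air.

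Per exonic length, EIN2, EIN3 and EBF2 were the 3 most abundant of the 10 in ethylene, and EIN3 stood first in air. In e2e3 in ethylene EIN2 was at 107 ± 3.6 FPKM, EBF2 at 97.6 ± 4.4 FPKM and EIN3 at 94.5 ± 2.5 FPKM (SD, n = 2), where EBF2 and EIN3 overlap. In e2e3 in air EIN3 was at 101 ± 2.9 FPKM, EIN2 at 77.8 ± 0.24 FPKM and EBF2 at 58.8 ± 0.41 FPKM. On the annotated exonic lengths, the order of these 3 thus differed between ethylene and air, with EIN2 above EIN3 in ethylene and below it in air. Which exons the RNA held was not measured, so the order of genes at near levels is uncertain.

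The order in e1e2 was the same as in e2e3 for EIN2, EBF2 and EIN3: they were at 115 ± 0.59, 107 ± 2.0 and 98.1 ± 0.19 FPKM in ethylene, against 74.4 ± 1.0, 59.5 ± 1.0 and 103 ± 0.79 FPKM in air. Over the 2303 bases that no other gene covers, EBF2 was at 124 ± 5.6 FPKM in e2e3 in ethylene and 74.8 ± 0.52 FPKM in e2e3 in air, and at 137 ± 2.5 FPKM in e1e2 in ethylene and 75.7 ± 1.3 FPKM in e1e2 in air. On that length it stood above EIN2 in ethylene. In air EBF2 was then slightly above EIN2 in e1e2 (75.7 and 74.4 FPKM) and below it in e2e3 (74.8 and 77.8 FPKM). The order of EIN2 and EBF2 in e1e2 in air thus depends on the length used. EIL1 followed at 47.0 to 54.3 FPKM over the 4 group means. EBF1 (25.8 to 33.8), EIN5 (25.5 to 27.9) and ENAP1 (21.3 to 27.5 FPKM) came next, close enough that their order changed between groups. ETP1 (8.51 to 13.5), EIL3 (8.36 to 9.08) and ETP2 (3.797 to 5.74 FPKM) were the least abundant, with ETP2 at percentiles 27.4 to 36.2 of tested genes.

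The ratio of EIN2 to EIN3 shows this change of order in each library. It was 1.13 ± 0.07 in e2e3 in ethylene and 0.768 ± 0.024 in e2e3 in air, and 1.17 ± 0.004 in e1e2 in ethylene and 0.725 ± 0.004 in e1e2 in air (SD, n = 2). EBF2 over EIN3 was 1.03 ± 0.07 in e2e3 in ethylene and 0.581 ± 0.013 in e2e3 in air, and 1.09 ± 0.02 in e1e2 in ethylene and 0.580 ± 0.005 in e1e2 in air. Over the 2303 free bases of EBF2 this ratio was 1.31 and 0.739 in e2e3 in ethylene and in air, and 1.39 and 0.738 in e1e2 in ethylene and in air. EBF2 RNA was thus near or above that of EIN3 in ethylene and below it in air, on either length.

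EBF2 over EBF1 was 3.46 ± 0.16 in e2e3 in ethylene and 2.28 ± 0.07 in e2e3 in air, and 3.18 ± 0.13 in e1e2 in ethylene and 2.32 ± 0.27 in e1e2 in air. EIN3 over EIL1 was 1.89 ± 0.08 in e2e3 in ethylene and 1.87 ± 0.03 in e2e3 in air, and 2.09 ± 0.01 in e1e2 in ethylene and 1.97 ± 0.06 in e1e2 in air. EBF2 and EBF1 thus moved apart in ethylene, while EIN3 and EIL1 stayed near each other's proportion. The mean log2 difference between ethylene and air over both lines was 0.62 for EIN2 over EIN3, 0.87 for EBF2 over EIN3 and 0.53 for EBF2 over EBF1. Each of these had p = 0.0556 in a two-sided exact permutation test within lines, the smallest p that its 36 arrangements allow, so none can pass 0.05. For EIN3 over EIL1 the difference was 0.05, with p = 0.167 in the same exact test. These are 4 of 10 sums and ratios computed. Benjamini-Hochberg adjustment over the 10 gives 0.0694 for the first 3 and 0.185 for EIN3 over EIL1 from the same exact test.

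**Figure D4:**
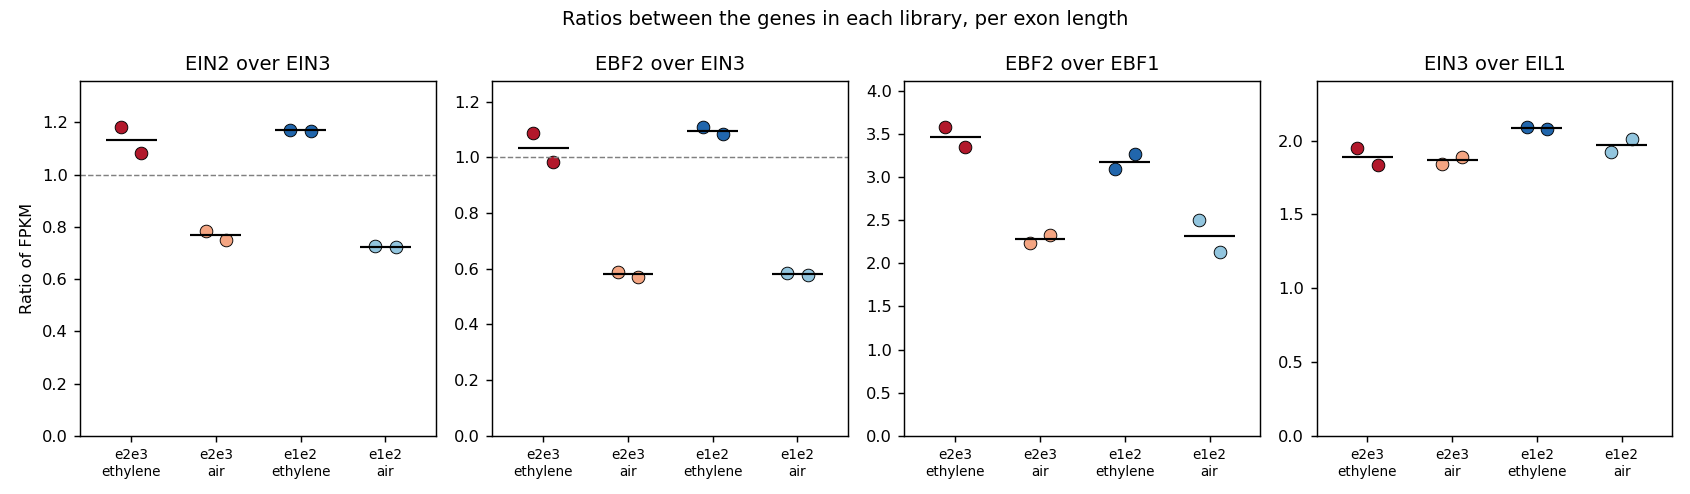
Ratios of FPKM between pairs of the genes in each library, with bars at the means of 2. The dashed line marks a ratio of 1, which EIN2 over EIN3 passed in ethylene and not in air. Where a ratio stands against 1 depends on the exonic lengths used. EBF2 is taken over its whole exonic length here.

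Some other genes tracked these profiles closely. Likeness was the root mean square difference of log2 CPM, each gene centred on its mean, over the 8 libraries. The 3 nearest to EIN2 were AT2G22660 (0.037, r = 0.996), ORP4C (0.044, r = 0.990) and AT2G02170 (0.044, r = 0.988). The 3 nearest to EBF2 were AT4G02715 (0.045, r = 0.994), AT4G15545 (0.051, r = 0.993) and ABCG1 (0.053, r = 0.995). For EIN3 they were AT3G27090 (0.018, r = 0.974), TIP2;2 (0.019, r = 0.945) and RAV1 (0.024, r = 0.918). These values only rank genes by likeness, since all 8 libraries share the 4 groups and their composition.

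Genes upstream of EIN2 were counted in the same way. Of 8 receptor, CTR1 and receptor-regulator genes, 5 rose and 1 fell in e2e3 (median log2 change 1.14), and 7 rose and 1 fell in e1e2 (median 1.26), beside a median of 0.01 over all tested genes. Of all tested genes, 20.3% rose and 23.6% fell in e2e3, and 18.3% rose and 20.9% fell in e1e2. The log2 changes of this list ran from -0.40 to 1.97 in e2e3 and from -0.23 to 2.28 in e1e2. RTE1, which acts with the receptor ETR1, rose by 1.97 ± 0.10 in e2e3 and 2.28 ± 0.11 in e1e2. The receptor ETR2 rose by 1.63 ± 0.06 in e2e3 and 1.78 ± 0.07 in e1e2, and the receptor ERS2 by 1.25 ± 0.06 in e2e3 and 1.44 ± 0.06 in e1e2. The changes of RTE1, ETR2 and ERS2 are larger than those of EIN2 and EBF2 in the same line, a comparison of values with no test. They were named for having the largest changes of the list, and other genes of the list changed by less than EIN2.

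Of 14 genes reported as EIN3 targets, 13 were tested. In e2e3 8 rose and 2 fell (median log2 change 0.91), and in e1e2 8 rose and 4 fell (median 1.06). The shares of all tested genes that rose and fell were 20.3% and 23.6% in e2e3, and 18.3% and 20.9% in e1e2. ERF1, a classic direct target, had 109 counts in e2e3 in ethylene and 13 in e2e3 in air over 2 libraries, and 156 counts in e1e2 in ethylene and 7 in e1e2 in air. It rose by 3.18 ± 0.38 in e2e3 and 4.15 ± 0.41 in e1e2. EDF3, an AP2 and B3 domain transcription factor, rose by 1.74 ± 0.07 in e2e3 and 1.68 ± 0.07 in e1e2. CBF3, a cold-response factor known to be repressed by EIN3, fell in both lines on very few counts: 2 in e2e3 in ethylene and 28 in e2e3 in air, and 3 in e1e2 in ethylene and 22 in e1e2 in air. Its ratio of ethylene over air was 0.0789 in e2e3 (exact 95% counting interval 0.00911 to 0.313) and 0.111 in e1e2 (0.0213 to 0.371), intervals that cover counting error only.

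EBF1, EBF2, ETP1 and ETP2 work within SCF ubiquitin ligases. Of 5 SCF partners of F-box proteins, 0 were called in e2e3 by edgeR (0 with an unadjusted p under 0.05, 0 by DESeq2) and 1 was called in e1e2, where 44.0% and 39.2% of all tested genes were. CAND1, which exchanges F-box subunits on the complex, was that gene, at a log2 change of 0.04 ± 0.05 in e2e3 and 0.17 ± 0.06 in e1e2. DESeq2 called 0 of the 5 in e1e2, and the CAND1 call was also lost without the second e1e2 air library (0.15) or the second e1e2 ethylene library (0.16).

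Among 13 genes of mRNA decay and of P-bodies, the granules where untranslated messages gather, 4 rose and 1 fell in each line (median log2 change 0.02 in e2e3 and 0.08 in e1e2). These 5 of 13 stand beside 44.0% of all tested genes called in e2e3 and 39.2% in e1e2, so the count is no result about the list. XRN2, a nuclear relative of EIN5, rose by 0.49 ± 0.06 in e2e3 and 0.35 ± 0.06 in e1e2. PAB8, a poly(A)-binding protein, rose by 0.39 ± 0.05 in e2e3 and 0.33 ± 0.05 in e1e2. SAL1, a phosphatase that clears an inhibitor of XRN enzymes, fell by 0.26 ± 0.08 in e2e3 and 0.25 ± 0.08 in e1e2. The SAL1 call in e2e3 was lost without the second e2e3 ethylene library (-0.21). That in e1e2 was lost without the second e1e2 air library (-0.21) or the first e1e2 ethylene library (-0.20), and DESeq2 made neither call.

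Among 14 genes of sulphur limitation, the response that EIL3 is known for, 4 rose and 4 fell in e2e3 (median log2 change -0.02), and 4 rose and 2 fell in e1e2 (median 0.15). The 8 called in e2e3 and 6 called in e1e2 stand beside 44.0% and 39.2% of all tested genes, so these counts are near the background. APR3, a reductase of sulphate assimilation, rose by 0.60 ± 0.05 in e2e3 and 0.75 ± 0.05 in e1e2. BGLU28, a beta-glucosidase that marks sulphur limitation, fell in e2e3 (-1.02 ± 0.24) and was at -0.46 ± 0.27 in e1e2, where it was not called. GGCT2;1, a glutathione-degrading enzyme, was at 0.63 ± 0.30 in e2e3 and 0.79 ± 0.35 in e1e2, with adjusted p-values of 0.081 and 0.060.

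**Figure D5:**
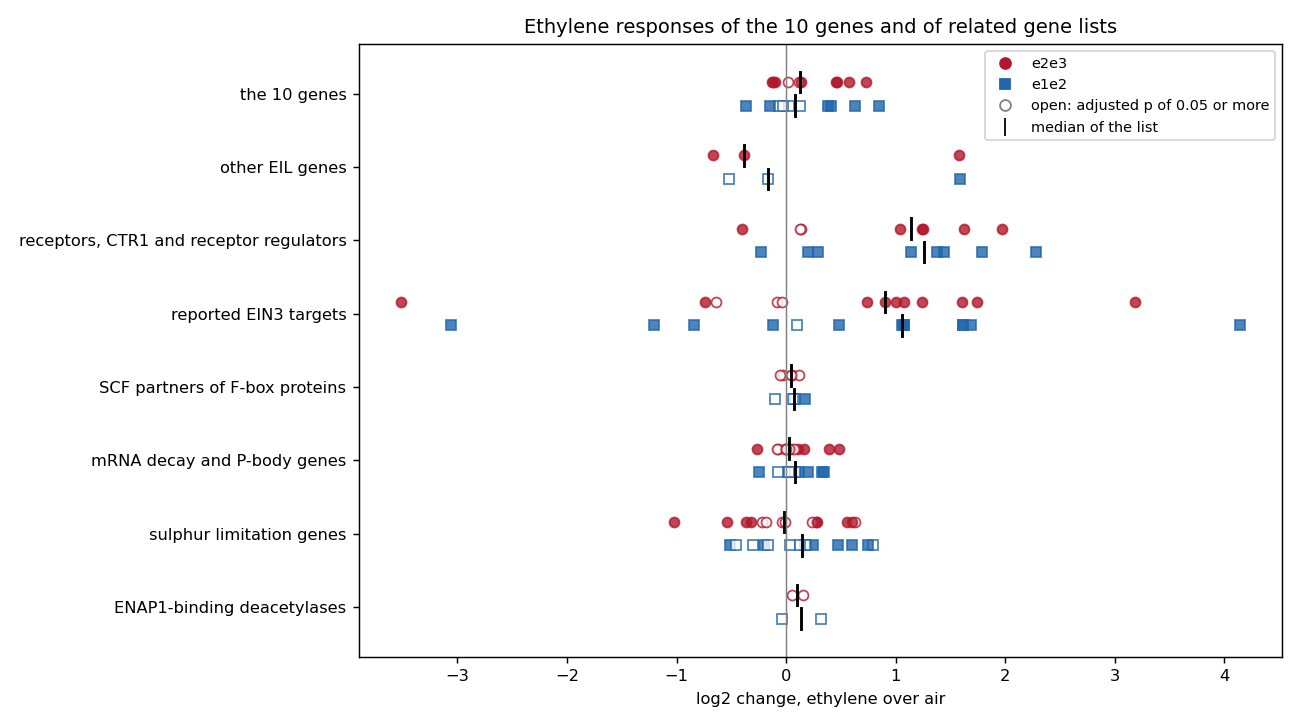
Log2 change in ethylene over air for every tested gene of the 10 and of 7 related lists, with the list median as a black line. Circles are e2e3, squares are e1e2, and filled symbols mark an adjusted p under 0.05. RTE1, ETR2, ERS2 and ERF1, named for the largest changes of their lists, lie further from 0 than any of the 10 genes. Other genes of those lists lie nearer 0 than EIN2. CBF3, at the far left, rests on 2 and 3 counts in ethylene.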

How the data were processed

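The authors deposited, per the file headers, raw counts of read pairs per gene from featureCounts 2.0.1 on Araport11 annotation, with paired-end counting and no strand, multi-mapping or overlap option. Per the submitters' processing notes, the build was TAIR10, and the tools named are STAR, Trim Galore, FastQC, Subread and DESeq2, without roles. The authors' deposited DESeq2 tables give a mean signal per gene (counts over size factors), a log2 fold change with its SE, a score (the test statistic) and raw and adjusted p-values. A further deposited table gives log2 fold changes in wild type and both lines for genes the authors called in wild type.

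From the counts of all 8 libraries, 1 model of 4 groups was fitted with edgeR 4.0.16 in R 4.3.3 (TMM scaling, default expression filter by group, robust quasi-likelihood F-tests). Calls were made under 0.05 after Benjamini-Hochberg adjustment across the 20193 genes. The model had 4 residual degrees of freedom and borrowed a median of 218 from other genes, so p-values rest mostly on spread shared by genes. The common coefficient of biological variation was 2.75%. Replicates correlated at 0.995 to 0.996 in log CPM across genes and differed by more than counting noise (chi-square per gene 1.42 to 1.96). The steps were tested on simulated counts. Ratios between genes were tested by exact permutation of the ethylene label within lines.

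The 10 genes and the related lists were chosen with earlier results of these data known. Named genes are the 10, the 3 of each other list with the largest mean absolute log2 change over both lines (for lists of 5 or fewer, all may be named), and the 3 nearest in pattern to EIN2, EIN3 and EBF2. The markers CAB3, CASP1, AP1, AP3 and AG fall outside this rule and were named after their values were seen. Promoter windows of 9 of the 10 genes (that of EIN3 is not reported here) came from the RefSeq TAIR10.1 genome and annotation, where 99.45% of 32730 shared loci have the count tables' chromosome, start, end and strand. Near copies were searched with BLAST 2.17.0. Alternatives were DESeq2 1.42.0, its size factors in edgeR, library totals alone, no filter, a stricter filter (1 CPM), the replicate number as a block, only the groups compared, and leaving out each library.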

Additional observations from a re-analysis of the deposited data

Results flagged for a closer look

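The responses of 3 genes to ethylene were called different between the lines by a test of the difference itself (edgeR's quasi-likelihood test, Benjamini-Hochberg adjusted over all genes). Of all tested genes, 2.80% were called in this test. For EIN2 the response in e2e3 minus that in e1e2 was -0.17 ± 0.05 on the log2 scale (adjusted p = 0.044): the log2 change was 0.46 in e2e3 and 0.63 in e1e2. For EBF1 the difference was -0.25 ± 0.08 (adjusted p = 0.042), with log2 changes of 0.13 in e2e3 and 0.39 in e1e2. For ENAP1 it was 0.39 ± 0.11 (adjusted p = 0.018), with log2 changes of 0.02 in e2e3 and -0.37 in e1e2. The EIN2 and EBF1 calls each held under 2 of 14 alternatives, and the ENAP1 call was lost when some single libraries were left out, as given above. DESeq2 called 0 of the 10 genes for this difference and gave ENAP1 no adjusted p. No cause was tested for any of the 3 differences.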

How the results depend on the processing

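Over the 10 genes and 5 comparisons, 50 results were recomputed in 734 alternatives: 635 kept direction and side of the threshold, 73 lost a call, 6 gained one and 20 reversed, 0 of these while called. The causes of the changes below were not tested. DESeq2 called 5137 genes in e1e2 in place of 7911 and 220 for the difference of responses in place of 566. It called 1422 for the lines in air in place of 2995 and 558 for the lines in ethylene in place of 1325. In e2e3 the alternatives other than leaving out 1 library called 5924 to 9647 genes, in place of 8876. Leaving out 1 library gave 240 to 545 for the difference, 1952 to 2936 in air and 638 to 1586 in ethylene. Of the 10 genes, 8 were called in e2e3, against 3 by DESeq2, 5 with library totals alone, 5 without a filter and 3 to 8 with 1 library left out. For the difference, 3 were called, against 0 by DESeq2, 1 with its size factors in edgeR, 1 without a filter, 1 with a stricter filter and 0 to 2 with 1 library left out. In air, 2 were called, against 0 by DESeq2 (1 with an unadjusted p under 0.05), 1 in a fit of only the groups compared and 0 to 2 with 1 library left out. In ethylene, 2 were called, against 1 by DESeq2 and 0 to 3 with 1 library left out.

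Same-numbered replicates did not deviate together over the tested genes (correlations of -0.030 to -0.00096). Much of each deviation is counting noise (chi-square per gene 1.42 to 1.96), so this cannot show whether the numbers pair the libraries. With the replicate block, 1 gene of the 10 was called for the difference (ENAP1) and 1 in air (ENAP1), and the other counts over the 10 and over all genes moved by less than 1.5 times.

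The log2 values that reversed, none of them called, were as follows. With library totals alone, which moved the median of all genes by 0.066 in e1e2 and 0.082 in e2e3, EIN3 was at 0.0018, EIN5 at 0.042 and SRT2 at 0.029 in e1e2, and EIN5 at -0.037 between lines in air. EIN5 in air was also at -0.0044 with a stricter filter and at -0.0061 with only the groups compared. With 1 library left out, values in e2e3 ran from -0.046 to 0.091 for ENAP1 and -0.088 to 0.19 for SRT1. In e1e2 they ran from -0.055 to 0.0054 for EIN5, -0.013 to 0.27 for ETP2, -0.34 to 0.043 for EIL5 and -0.032 to 0.084 for EIL3. For the difference they ran from -0.064 to 0.015 for EIN3, -0.043 to 0.10 for EIL1 and -0.094 to 0.20 for ETP1. In ethylene they ran from -0.065 to 0.051 for EIL3 and -0.12 to 0.045 for ETP2, and in air from -0.040 to 0.041 for EIN5 and -0.12 to 0.098 for EBF1. ETP2 had 84 to 132 counts per library, the fewest of the 10 genes, and the part of depth in its changes was not tested.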
